A study of Mus musculus with 8 samples.

Results

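The genes described here carry glucose into the cell and break it down to lactate. They are 10 genes fixed by name: the glucose transporter Slc2a1, the hexokinases Hk1 and Hk2, the isomerase Gpi1, the phosphofructokinases Pfkl and Pfkp, and Tpi1, Gapdh, Eno1 and Ldha. Every feature of the array whose gene name in the files was one of these was taken, which gave 30 of 44170 features for 10 of 24171 named genes. Each gene was then read on its brightest feature, judged by its log2 mean across all arrays. No measured difference entered the choice of feature, though the gene list was drawn up with earlier results of these data known.

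Total RNA from 8 mouse spleens was read on NimbleGen expression arrays with 1 dye (Cy3) and 1 animal per array. Of the animals, 4 lacked miR-155, a microRNA that shapes lymphocyte and myeloid responses, and 4 were wild type. The knockout animals were Mim1-5 and Mim1-6, labelled female, and Mim2-2 and Mim2-3, labelled male. The wild-type animals WT-1 and WT-3 were labelled female and WT-2 and WT-4 male, so each genotype had 2 animals of each sex. The labels give no strain, age, treatment or make of the knockout allele. Among knockout animals the labelled sex and the name prefix coincide, so that an effect of sex and any other difference between Mim1 and Mim2 animals cannot be told apart. The labels do not say what the prefixes stand for. The RNA is that of the whole organ, in which fewer cells of a type and less RNA per cell cannot be told apart.

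Glycolysis turns glucose into pyruvate in the cytosol and yields ATP without oxygen. Facilitative transporters let glucose in, hexokinases trap it as glucose 6-phosphate, and phosphofructokinase commits it to breakdown. Lactate dehydrogenase then regenerates the NAD that glyceraldehyde 3-phosphate dehydrogenase needs. Activated lymphocytes are known for raising glucose uptake and lactate output, and many genes of the pathway are targets of the hypoxia factor HIF1 and of MYC.

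On the arrays, all 10 genes had a lower mean in the knockout, against 46.1% of named genes, and none of these differences passed the test over all features. The lowest values were mostly those of the Mim2 animals. Both Mim2 arrays lay below all 6 other arrays for 8 of the 10 genes, Hk2 and Ldha being the exceptions, while the Mim1 arrays lay in or near the wild-type range. They also lay lowest for 14.4% of all named genes. Among named genes at least as bright as Hk2, the dimmest of the 10, the share was 30.6%. Compared with wild-type males, Slc2a1 was 5.23-fold and Pfkl 3.77-fold lower in Mim2 animals, and these were the 2 genes past the threshold in that comparison, against 3.35% of all features called lower. The count of these genes was 0 with any 1 labelled female array left out, and leaving out a male array leaves a lone sample in its group. It was 6 with other variance estimates or with the authors' smaller table of features. Calls over all features rose there too, from 1875 of 44170 to 4266 and, in the smaller table, 4830 of 21856.

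Median intensities ran from 112.1 to 119.1 on the linear scale over the 8 arrays, and 81.1% to 85.1% of features exceeded the level of the random probes, log2 4.94 to 5.24. Each Mim2 array stood apart from the rest. Over all features they correlated at r = 0.811 to 0.877 with the other 6 arrays, which correlated at 0.911 to 0.943 among themselves. The 2 Mim2 arrays correlated at 0.874 with each other, no higher than with Mim1-5 in the case of Mim2-2. Their 75th percentile of intensity was 378 and 369, against 414 to 444 on the others. The X inactivation transcript Xist read log2 8.35 to 11.10 on all 8 arrays and the Y-linked gene Ddx3y 6.26 to 8.83, and neither separated the labelled sexes. Ddx3y did separate the genotypes, at 8.39 to 8.83 on the knockout and 6.26 to 7.33 on the wild-type arrays. Genes of spleen cells were detected over that level on all arrays, with 12 of 12 B cell markers and 11 of 11 red pulp macrophage markers. Genes of the mammary gland were detected too, with 17 of 18 epithelial markers on every wild-type array. The labelled sex and tissue are therefore used below as names of the arrays. Differences are on the log2 scale, with knockout minus wild type below 0 where the knockout is lower.

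**Figure D1:**
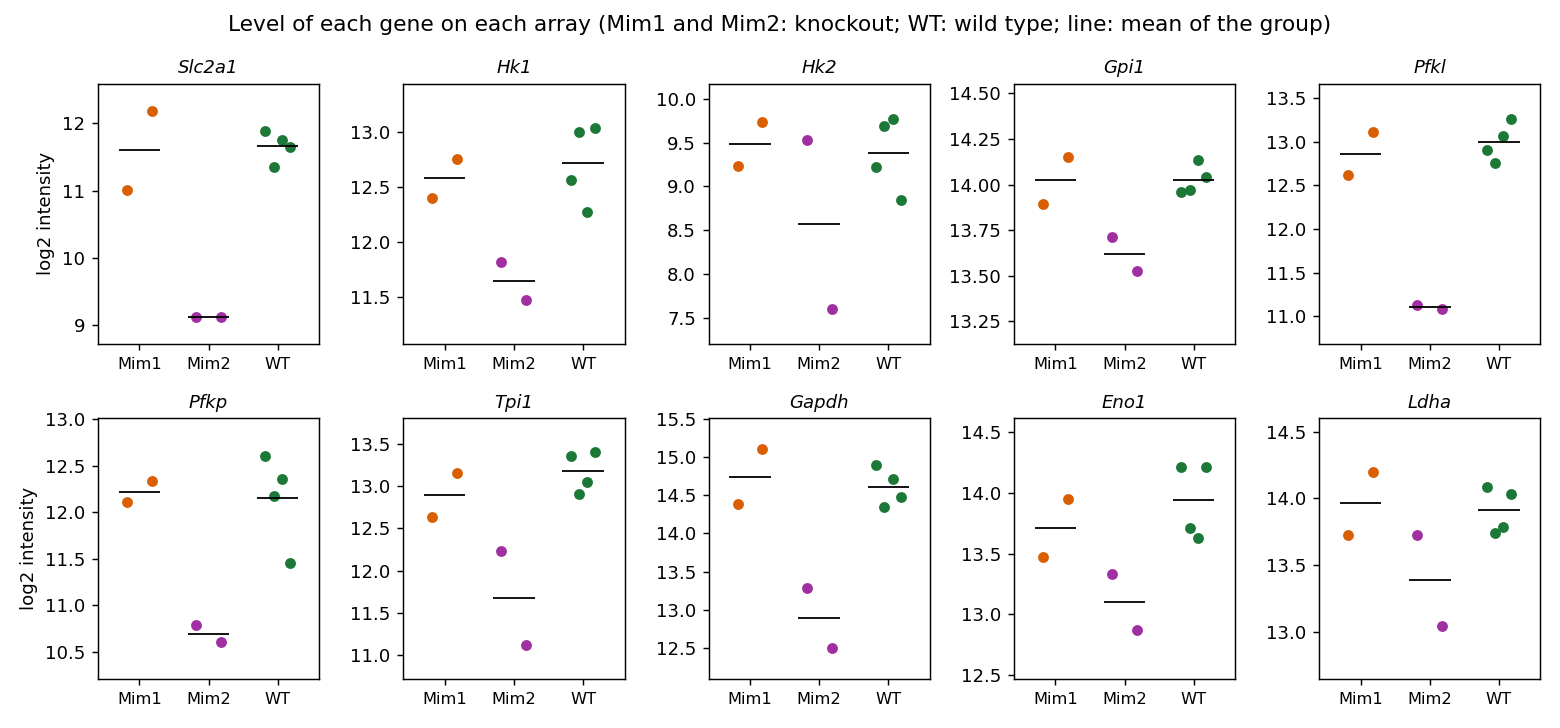
Log2 intensity of the brightest feature of each of the 10 genes on each of the 8 arrays, each panel on its own vertical scale that does not start at 0. Points are animals and lines are means of the 2 Mim1, 2 Mim2 and 4 wild-type (WT) arrays; both Mim2 points lie below all others in every panel but those of Hk2 and Ldha.

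Slc2a1 encodes GLUT1, the transporter that supplies basal glucose uptake in blood cells, epithelia and many other tissues. Its feature lies on chromosome 4 (chr4:118781380-118809934, build MM9). Its log2 intensity was 11.01 and 12.19 on the Mim1 arrays, 9.11 and 9.12 on the Mim2 arrays, and 11.89, 11.35, 11.75 and 11.65 on the wild-type arrays. The Mim2 arrays were alike and far below the rest, Mim1-6 was the highest of all 8, and Mim1-5 lay below the wild-type range, so the genotypes overlapped. Here the knockout minus wild type difference was -1.30 ± 0.48 (SE; limma adjusted p = 0.314, exact permutation p = 0.2). With 4 arrays against 4, the smallest p the permutation test can give is 0.0286. The 95% interval of the difference ran from -2.39 to -0.21.

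The region just upstream of Slc2a1 is shown because this gene had the largest difference of the 10, and those of Pfkl, Gapdh and Ldha for comparison with a gene that also passed in males, a gene with many features and a gene that differed little. The windows are the 250 bases before the annotated start in the RefSeq promoter table of assembly GRCm38.p6, 5′ to 3′ on the strand of the gene. Capitals mark matches, on either strand, to the core of the hypoxia response element, searched as ACGTG or GCGTG.
Slc2a1 (chr4:119108495-119108744, plus strand): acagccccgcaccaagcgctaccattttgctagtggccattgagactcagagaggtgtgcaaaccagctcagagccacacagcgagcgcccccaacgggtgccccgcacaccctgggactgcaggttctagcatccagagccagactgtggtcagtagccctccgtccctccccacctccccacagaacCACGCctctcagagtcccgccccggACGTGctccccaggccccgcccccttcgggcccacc
Pfkl (chr10:78009808-78010057, minus strand): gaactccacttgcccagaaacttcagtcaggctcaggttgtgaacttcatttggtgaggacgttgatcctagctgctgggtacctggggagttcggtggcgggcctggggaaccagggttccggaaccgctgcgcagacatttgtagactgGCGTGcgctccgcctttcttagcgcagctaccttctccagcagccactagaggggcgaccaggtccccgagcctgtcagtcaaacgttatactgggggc
Gapdh (chr6:125165774-125166023, minus strand): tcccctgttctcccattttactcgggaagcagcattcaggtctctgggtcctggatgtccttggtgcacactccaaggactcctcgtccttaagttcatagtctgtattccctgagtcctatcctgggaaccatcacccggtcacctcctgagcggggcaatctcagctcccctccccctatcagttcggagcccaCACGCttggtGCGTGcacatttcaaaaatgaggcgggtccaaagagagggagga
Ldha (chr7:46845554-46845803, plus strand): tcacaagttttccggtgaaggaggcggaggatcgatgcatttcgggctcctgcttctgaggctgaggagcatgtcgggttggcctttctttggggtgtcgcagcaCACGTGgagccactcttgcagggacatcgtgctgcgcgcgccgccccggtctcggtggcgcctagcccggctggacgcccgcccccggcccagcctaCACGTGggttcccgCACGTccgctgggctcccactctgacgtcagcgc
The table held windows for 10 of the 10 genes, 14 windows in all. A match to the core was found for 8 of the 10, Gpi1 and Tpi1 being the genes without one. Of 27025 genes in the table, 41.5% had a window with a match, and so did 38.6% of its 32851 windows. The Ldha window held 5 matches, counted over both strands. It also held 2 copies of the longer E-box CACGTG, a palindrome that contains the core on each strand. No other gene of the 10 had this E-box, and 6.86% of all genes did. The GC box GGGCGG, also sought on both strands, was found for 7 of the 10 genes and for 35.4% of all genes. These are matches of letters in a fixed window, and binding was not measured. Pfkl had 1 match, Slc2a1 and Gapdh had 2 each.

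The hexokinases trap glucose in the cell by phosphorylating it. Hk1 is the isoform of most resting tissues and of red cells, and Hk2 is the inducible one. The log2 intensity of Hk1 (chr10:61732609-61803106, MM9) was 12.40 and 12.76 on the Mim1 arrays, 11.81 and 11.47 on the Mim2 arrays, and 12.56, 12.99, 12.27 and 13.04 on the wild-type arrays. Both Mim2 arrays were the lowest of the 8, and both Mim1 arrays lay within the wild-type range. For Hk1 the knockout minus wild type difference was -0.61 ± 0.37 (SE; limma adjusted p = 0.485, exact permutation p = 0.143).

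The log2 intensity of Hk2 (chr6:82675020-82724367, MM9) was 9.24 and 9.73 on the Mim1 arrays, 9.53 and 7.60 on the Mim2 arrays, and 9.22, 9.69, 9.77 and 8.84 on the wild-type arrays. Only Mim2-3 was low, and Mim2-2 lay among the wild-type values. For Hk2 the knockout minus wild type difference was -0.36 ± 0.46 (SE; limma adjusted p = 0.756, exact permutation p = 0.657), with a 95% interval of -1.40 to 0.68. Without Mim2-3 it was 0.10, on the other side of 0.

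Gpi1 (chr7:34987151-35015262, MM9), which converts glucose 6-phosphate to fructose 6-phosphate, varied least. On the arrays it read log2 13.90 and 14.15 on the Mim1 arrays, 13.71 and 13.53 on the Mim2 arrays, and 13.96, 13.97, 14.13 and 14.04 on the wild-type arrays. The 8 values spanned 0.629, and 3 of the 4 knockout arrays lay below the lowest wild-type array. The difference of -0.21 ± 0.26 (SE) did not pass (limma adjusted p = 0.754), and its 95% interval was -0.80 to 0.39.

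Phosphofructokinase catalyses the committed step, and Pfkl and Pfkp encode its liver and platelet subunits. The log2 intensity of Pfkl (chr10:77450647-77472485, MM9) was 12.62 and 13.11 on the Mim1 arrays, 11.12 and 11.08 on the Mim2 arrays, and 12.91, 12.76, 13.06 and 13.27 on the wild-type arrays. The Mim2 arrays agreed closely with each other and lay more than 1 below every other array, whereas Mim1-6 lay within the wild-type range and Mim1-5 just below it. For Pfkl the knockout minus wild type difference was -1.02 ± 0.41 (SE; limma adjusted p = 0.333, exact permutation p = 0.143), with a 95% interval of -1.93 to -0.10.

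The log2 intensity of Pfkp (chr13:6580423-6647956, MM9) was 12.10 and 12.34 on the Mim1 arrays, 10.78 and 10.61 on the Mim2 arrays, and 12.61, 12.17, 12.36 and 11.45 on the wild-type arrays. The Mim2 arrays were again lowest, but WT-4 was the next, and the wild-type arrays spread more widely than for Pfkl. For Pfkp the knockout minus wild type difference was -0.69 ± 0.32 (SE; limma adjusted p = 0.373, exact permutation p = 0.2).

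Tpi1 (chr6:124760732-124764165, MM9) interconverts the triose phosphates made from fructose 1,6-bisphosphate. The arrays read log2 12.63 and 13.15 on the Mim1 arrays, 12.23 and 11.12 on the Mim2 arrays, and 13.36, 12.90, 13.04 and 13.40 on the wild-type arrays. Mim2-3 was by far the lowest, Mim2-2 and Mim1-5 also lay below the wild-type range, and Mim1-6 lay within it. For Tpi1 the knockout minus wild type difference was -0.90 ± 0.39 (SE; limma adjusted p = 0.355, exact permutation p = 0.0857).

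Gapdh (chr6:125111870-125115606, MM9) oxidises glyceraldehyde 3-phosphate and is widely used as a reference gene. Intensities were log2 14.38 and 15.11 on the Mim1 arrays, 13.28 and 12.49 on the Mim2 arrays, and 14.90, 14.34, 14.71 and 14.47 on the wild-type arrays. Mim2-2 and Mim2-3 were the lowest, Mim1-6 was the highest, and Mim1-5 lay inside the wild-type range. For Gapdh the knockout minus wild type difference was -0.79 ± 0.39 (SE; limma adjusted p = 0.403, exact permutation p = 0.314).

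Eno1 (chr4:149611375-149622980, MM9) makes phosphoenolpyruvate. It read log2 13.47 and 13.95 on the Mim1 arrays, 13.33 and 12.87 on the Mim2 arrays, and 14.21, 13.71, 13.63 and 14.21 on the wild-type arrays. Here 3 knockout arrays lay below the wild-type range and Mim1-6 within it. For Eno1 the knockout minus wild type difference was -0.54 ± 0.32 (SE; limma adjusted p = 0.476, exact permutation p = 0.114).

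Ldha (chr7:54101212-54110996, MM9) encodes the lactate dehydrogenase subunit that favours making lactate from pyruvate. Its feature read log2 13.72 and 14.20 on the Mim1 arrays, 13.73 and 13.04 on the Mim2 arrays, and 14.09, 13.74, 13.78 and 14.03 on the wild-type arrays. Only Mim2-3 stood clearly low, and Mim2-2 read nearly the same as Mim1-5 and WT-2. For Ldha the knockout minus wild type difference was -0.24 ± 0.31 (SE; limma adjusted p = 0.756, exact permutation p = 0.486), with a 95% interval of -0.93 to 0.45.

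Read as a list, 0 of the 10 genes passed between knockout and wild type at an adjusted p under 0.05, as did 0.0% of all features. At an unadjusted p under 0.05 in limma, 3 of the 10 were lower (Slc2a1, Pfkl and Tpi1), against 6.88% of all features lower and 6.98% higher. The groups overlapped for all 10, and 2.64% of all features had every knockout array below every wild-type array. The median difference of the 10 was -0.65, against 0.06 over 24171 named genes, of which 46.1% lay below 0. The genes are bright, and bright genes were more often lowest on the Mim2 arrays. Of the 5851 named genes at least as bright as Hk2, the dimmest of the 10, 51.9% lay below 0, 11.5% were lower at an unadjusted p under 0.05 and the median was -0.02. Both Mim2 arrays lay below all 6 others for 8 of the 10 genes, for 14.4% of named genes and for 30.6% of those as bright as Hk2. This brightness class was set after the data were seen. Its floor was the mean log2 of Hk2, 9.20, while the wild-type means of the rest of the 10 ran from 11.66 (Slc2a1) to 14.6 (Gapdh). A class matched to those brighter genes was not examined.

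The difference was also taken within each labelled sex, from the fit with a genotype by sex term. Within females, Mim1 minus wild type had a median of -0.09 over the 10 genes. It ran from -0.31 for Tpi1 to 0.16 for Hk1, was below 0 for 8 of the 10 against 48.1% of named genes, and passed for none, as for 0.0% of all features. At an unadjusted p under 0.05 the count was also 0 of 10, against 2.8% of all features lower and 2.35% higher. For Slc2a1 the female difference was -0.22 ± 0.45 (SE), and for Pfkl -0.12 ± 0.38.

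Within males, Mim2 minus wild type was below 0 for all 10 genes, with a median of -1.25, against 43.8% of named genes below 0. Slc2a1 fell by 2.39 ± 0.45 (SE; limma adjusted p = 0.0361) and Pfkl by 1.91 ± 0.38 (adjusted p = 0.0374). These 2 of 10 compare with 3.35% of all features called lower within males, and with 7.55% of named genes as bright as Hk2. Gapdh came next at -1.52 (adjusted p = 0.0872), then Tpi1 at -1.48 (0.116) and Hk1 at -1.37 (0.0738). The smallest were Pfkp at -1.12, Eno1 at -0.86, Hk2 at -0.70, Ldha at -0.50 and Gpi1 at -0.39. At an unadjusted p under 0.05, 6 of the 10 were lower, against 12.6% of all features.

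The calls for Slc2a1 and Pfkl rest on 2 arrays against 2. With 1 array left out in turn, their limma adjusted p rose to between 0.0507 and 0.202 for Slc2a1 and between 0.061 and 0.209 for Pfkl. Leaving out a female array cannot alter the male difference, only the spread and its degrees of freedom. Leaving out a male array leaves a lone sample in its group, which is then assumed to vary like the others, and the differences ran from -2.54 to -2.24 and from -2.17 to -1.66. The count of the 10 genes called within males was 6 with trend and robust estimates in eBayes and also 6 on the features of the authors' table of the series, where Hk1, Pfkp, Tpi1 and Gapdh joined them. It was 3 with values floored at the random probes, where Hk1 joined, and 0 with array weights. Over all features the count within males was 1875 of 44170 as reported and 4266 with trend and robust estimates. It was 4830 of 21856 in the authors' table, 2615 with the floor and 1041 with array weights. The test of the difference between the sexes themselves gave -2.17 ± 0.64 (SE; limma adjusted p = 0.24) for Slc2a1 and -1.79 ± 0.53 (limma adjusted p = 0.24) for Pfkl. With Hk1 and Gapdh, 4 of the 10 had an unadjusted p under 0.05 there, against 8.03% of all features on the lower side, and 0 of 10 and 0.0% of all features passed after adjustment. So the Mim2 arrays were not shown to differ from wild type by more than the Mim1 arrays did.

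**Figure D2:**
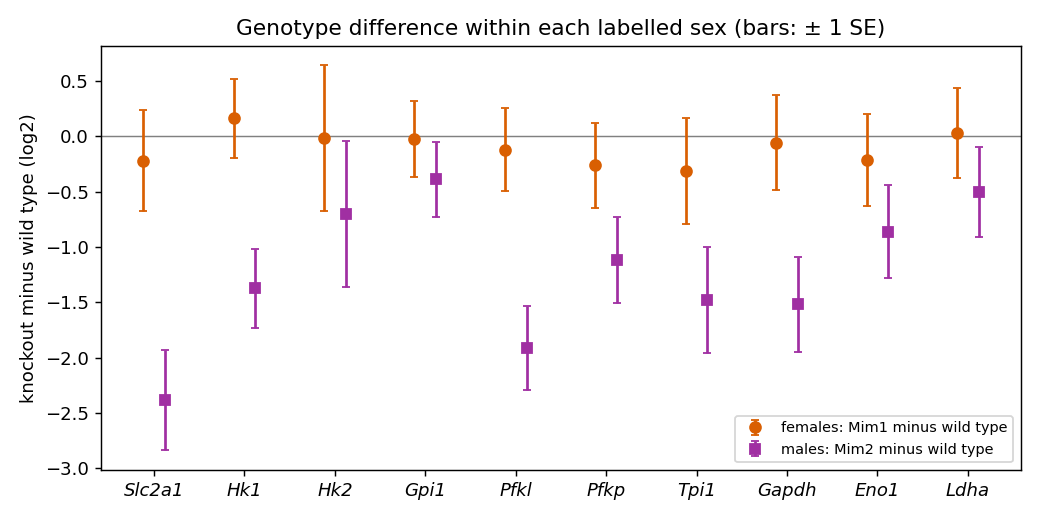
Knockout minus wild type on the log2 scale within labelled females (Mim1) and within labelled males (Mim2) for each of the 10 genes, as estimated by limma from 2 arrays against 2; bars are 1 standard error. The female estimates lie between -0.31 and 0.16, and the male ones reach -2.39 for Slc2a1 and -1.91 for Pfkl.

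Of the 10 genes, 4 had 1 feature and the others had more. Of the 30 features, 26 had a difference below 0. For 2 of the 30, all 4 knockout values were under the lowest wild-type value, against 2.64% of all features. These 2 were an added Gpi1 feature at -0.57 and an added Gapdh feature at -0.81. Exact permutation p was 0.0286 for each, and limma adjusted p was 0.377 and 0.347. The 25 features with a wild-type mean log2 of at least 9, a limit set after the data were seen, all lay below 0, and within males also. Of the 5 dimmer ones, 4 lay above 0. These were a second feature of Hk1 at 0.62, 2 further features of Pfkp at 0.43 and 0.87, and a dim feature of Eno1 at 0.62 (limma adjusted p = 0.35). On that Eno1 feature every knockout array lay above every wild-type array (exact permutation p = 0.0286), as for 4.7% of all features. Gapdh had 9 of the 30 features and Eno1 had 7. Features of a gene share the RNA of the same arrays and are not independent of each other.

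The 8 further Gapdh features ran from -1.08 to -0.23, all below 0, and 1 of them also passed within males at -2.26 (limma adjusted p = 0.0329). The 6 further Eno1 features ran from -0.62 to 0.62, with 5 below 0. The second Ldha feature had a difference within males of -1.72, against -0.50 on the brightest, so the 2 Ldha features disagree in size. Which genes were lowest on both Mim2 arrays also depended on the feature. Both Mim2 arrays were lowest on the second Ldha feature. On the second Gpi1 feature Mim1-5 was lowest, at 13.33, and Mim2-2 read 13.68. Gapdh and Eno1 have many near-identical copies in the mouse genome, whose RNA these probes may not tell apart.

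**Figure D3:**
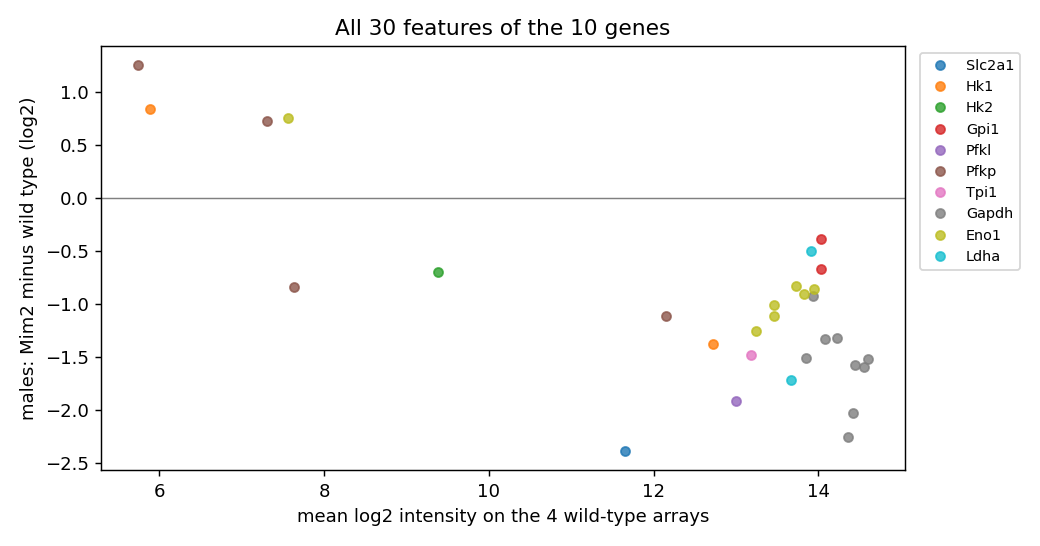
Mim2 minus wild type within labelled males (log2) against the mean log2 intensity on the 4 wild-type arrays, for all 30 features of the 10 genes, coloured by gene. All 25 features with a wild-type mean of at least 9 lie below 0, and 4 of the 5 dimmer ones lie above it.

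Other genes of the pathway were mixed in direction, and the bright ones lay mostly below 0. Of 33 further transporters, hexokinases, phosphofructokinase genes and lower glycolysis enzymes, 20 lay below 0 and 13 above, with a median of -0.27, against 46.1% of named genes below 0 and a median of 0.06. None passed, and 2 were lower and 2 higher at an unadjusted p under 0.05. Within males 17 of the 33 lay below 0 and 0 passed. Both Mim2 arrays lay below all others for 6 of the 33, against 14.4% of named genes. Of the 8 among them at least as bright as Hk2, 6 lay below 0, with a median of -0.53, and 5 had both Mim2 arrays below all others, against 30.6% of named genes of that brightness. Of the 25 dimmer ones, 14 lay below 0 and 1 had both Mim2 arrays below all others. A difference between the 10 genes and these others was not tested.

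Among 10 other glucose transporters, 6 lay below 0 and 4 above. Slc2a4 encodes GLUT4, the insulin-responsive transporter of fat and muscle. It read log2 7.01 and 7.31 on the Mim1 arrays, 12.46 and 9.90 on the Mim2 arrays, and 6.01, 8.04, 8.14 and 5.88 on the wild-type arrays, so both Mim2 arrays lay above all others. For Slc2a4 the knockout minus wild type difference was 2.15 ± 0.98 (SE; limma adjusted p = 0.371, exact permutation p = 0.171). Slc2a8 differed by -0.55 (adjusted p = 0.589). Slc2a3, the high-affinity GLUT3, differed by -1.17 (adjusted p = 0.682), with wild-type arrays spread from 6.81 to 12.94. The fructose transporter gene Slc2a5 exceeded the random probes on 3 of 4 knockout and 0 of 4 wild-type arrays. It read log2 10.39 on Mim2-2 alone and 4.08 to 5.73 on the other arrays, with Mim1-6 the lowest.

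Of the 4 other hexokinases, 2 lay on each side of 0, with Adpgk at 0.55 (limma adjusted p = 0.566) and Hkdc1 at -0.59 (0.605). Of the 6 other phosphofructokinase genes and regulators, 4 lay below 0. Pfkm, the muscle subunit, differed by -0.94 (adjusted p = 0.312) and Pfkfb2, which makes the activator fructose 2,6-bisphosphate, by -0.86 (0.463). Pfkfb1 differed by 1.18 (0.352) and exceeded the random probes on 5 of 8 arrays.

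Of the 13 other lower glycolysis enzymes, 8 lay below 0. Pkm encodes the pyruvate kinase of most adult tissues. Its log2 intensity was 13.59 and 13.98 on the Mim1 arrays, 12.43 and 12.46 on the Mim2 arrays, and 14.16, 13.35, 14.01 and 14.27 on the wild-type arrays, with both Mim2 arrays lowest, and the knockout minus wild type difference was -0.83 ± 0.35 (SE; limma adjusted p = 0.344, exact permutation p = 0.143). Aldoc, an aldolase, differed by -2.07 (adjusted p = 0.391), and Mim2-2 stood alone at 7.91. The aldolase Aldoa differed by -0.53 (0.562), the mutase gene Pgam1 by -0.30 (0.648) and the phosphoglycerate kinase gene Pgk1 by -0.54 (0.544). Pgk2, its testis counterpart, differed by 0.94 (0.315) and was over the random level on 1 of 4 wild-type arrays.

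Lactate and pyruvate handling showed no common direction, with 7 of 15 genes below 0 and a median of 0.11. Bsg encodes basigin, the chaperone that brings lactate transporters to the membrane. Its feature read log2 12.52 and 13.40 on the Mim1 arrays, 11.58 and 10.98 on the Mim2 arrays, and 13.87, 13.40, 13.81 and 13.72 on the wild-type arrays. For Bsg the knockout minus wild type difference was -1.58 ± 0.39 (SE; limma adjusted p = 0.262, exact permutation p = 0.0571), and within males it fell by 2.28 (adjusted p = 0.0363). The other of the 15 genes past the threshold within males, named after its value was seen, was Pdk1, a kinase that turns pyruvate dehydrogenase off, which fell by 2.72 (adjusted p = 0.0357). These 2 of 15 compare with 3.35% of all features called lower within males. Ldhb differed by -1.05 (0.338) and Pdk2 by -0.71 (0.371) over all 8 arrays.

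Of 14 genes of gluconeogenesis and glycogen, 9 lay above 0. Pck1, an enzyme of gluconeogenesis in liver and of glyceride synthesis in fat, had a log2 intensity of 7.94 and 6.65 on the Mim1 arrays, 11.87 and 12.85 on the Mim2 arrays, and 7.24, 7.97, 7.00 and 6.77 on the wild-type arrays. Both Mim2 arrays stood far above the rest. Within males it rose by 4.99 (adjusted p = 0.0221), and over all 8 arrays the knockout minus wild type difference was 2.58 ± 0.90 (SE; limma adjusted p = 0.301, exact permutation p = 0.257). The glycogen phosphorylase gene Pygl differed by 1.17 (0.408) and Fbp1 by 0.51 (0.536).

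Of 8 genes of the pentose phosphate branch, 6 lay below 0, and the 3 with the smallest p were H6pd at 0.24 (limma adjusted p = 0.711), Rpe at -0.25 (0.815) and Tkt at -0.27 (0.856). Of 10 regulators of glycolysis genes, 5 lay on each side. Egln3, an oxygen sensor that is itself a HIF target, had a log2 intensity of 11.75 and 13.06 on the Mim1 arrays, 8.90 and 10.41 on the Mim2 arrays, and 12.79, 13.14, 12.99 and 13.40 on the wild-type arrays, and the knockout minus wild type difference was -2.05 ± 0.67 (SE; limma adjusted p = 0.291, exact permutation p = 0.0857). Of the 10 regulators, 2 were called lower within males, against 3.35% of all features. Within males Egln3 fell by 3.62 (limma adjusted p = 0.0297), and so did Arnt, the partner of HIF1A, by 1.93 (0.0368), a gene named after its value was seen. These calls rest on few arrays too: without Mim2-2, or without any of the wild-type arrays in turn, 0 of all features passed within males in limma, with 6745 to 9691 at an unadjusted p under 0.05. Hif1a itself differed by -0.63 (0.408) and Epas1 by -0.49 (0.515) over all arrays.

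The 13 reference genes measured had a median of 0.02, with 6 below 0 and none past the threshold in either comparison. Of these B2m differed by 0.69 (limma adjusted p = 0.401), Gusb by -0.48 (0.462), Hprt by 0.24 (0.724), Tbp by -0.26 (0.767) and Ppia by 0.19 (0.776). Both Mim2 arrays lay below all others for 0 of the 13, against 8 of the 10 glycolysis genes. The mean of the list was 12.54 and 12.72 on the Mim1 arrays, 12.48 and 12.49 on the Mim2 arrays and 12.47 to 12.66 on the wild-type arrays.

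**Figure D4:**
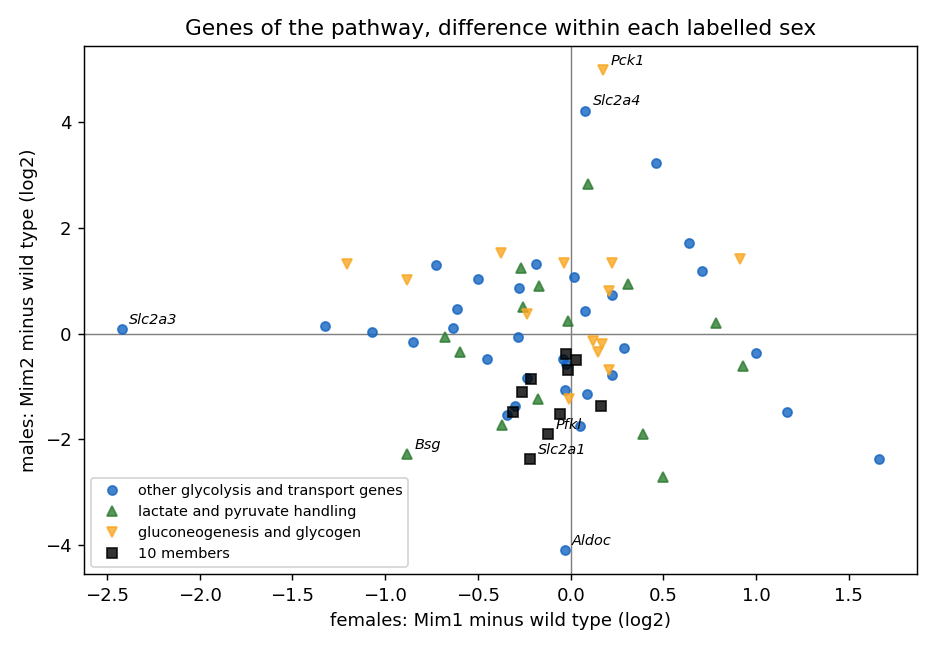
Difference within labelled males (Mim2 minus wild type) against that within labelled females (Mim1 minus wild type), both log2, for the 10 genes (squares) and for 3 groups of other pathway genes. The 10 genes lie near 0 on the female axis and below 0 on the male axis, while Pck1 reaches 4.99 and Slc2a4 4.22 on the male axis.

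Markers of other cells also set the Mim2 arrays apart. The mean log2 intensity of the 10 glycolysis genes was 12.55 and 13.07 on the Mim1 arrays, 11.87 and 11.29 on the Mim2 arrays and 12.76 to 12.97 on the wild-type arrays. That of 18 mammary epithelial genes, 18 of 18 measured, was 10.42 and 10.72 on the Mim1 arrays, 7.54 and 8.44 on the Mim2 arrays and 10.53 to 10.98 on the wild-type arrays, and both Mim2 arrays lay below all others for 15 of the 18, against 14.4% of named genes. Of its defining genes, the tight junction gene Cldn4 lay near the random probes on the Mim2 arrays, with a mean of 4.80, as did Cldn3 at 5.50, and 1 of the 18, Krt19, lay above all others there. The mean of 8 adipocyte genes, of 9 listed, ran the other way, at 7.58 and 7.43 on the Mim1 arrays, 10.88 and 10.28 on the Mim2 arrays and 7.61 to 7.83 on the wild-type arrays, and both Mim2 arrays lay above all others for 8 of the 8, against 16.3% of named genes. With the mammary mean as a further term in the fit, the median difference of the glycolysis genes was -0.16 in place of -0.65, Slc2a1 differed by -0.16 and Pfkl by -0.12. That term also separates the Mim2 arrays from the rest, so it takes out any difference that goes with those arrays. The part of these cells in the result was not tested beyond this.

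Other marker lists separated the genotypes, the Mim1 arrays included. The mean of 12 B cell genes was 10.12 and 9.87 on the Mim1 arrays, 10.76 and 10.48 on the Mim2 arrays and 8.74 to 9.21 on the wild-type arrays, and that of 12 T cell genes 8.66 and 8.55 on the Mim1 arrays, 9.21 and 9.14 on the Mim2 arrays and 7.67 to 8.26 on the wild-type arrays. The 8 milk protein genes stood at 9.18 and 8.36 on the Mim1 arrays, 7.48 and 8.94 on the Mim2 arrays and 10.41 to 11.00 on the wild-type arrays, and 10 exocrine pancreas genes at 8.30 and 7.04 on the Mim1 arrays, 7.80 and 7.49 on the Mim2 arrays and 5.74 to 6.21 on the wild-type arrays. Neutrophil genes, 11 of 11 measured, stood at 8.14 and 8.17 on the Mim1 arrays, 8.54 and 8.57 on the Mim2 arrays and 8.81 to 9.21 on the wild-type arrays. For these 5 lists, all 4 knockout arrays lay on one side of the wild-type range.

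The mean of 14 proliferation genes was 8.73 and 9.91 on the Mim1 arrays, 8.61 and 8.46 on the Mim2 arrays and 9.41 to 9.96 on the wild-type arrays. All 14 lay below 0, against 46.1% of named genes, with a median of -0.65. None passed over all 8 arrays, and 2 were called lower within males, against 3.35% of all features. Both Mim2 arrays lay below all others for 6 of the 14, against 14.4% of named genes. Mim1-5 and both Mim2 arrays lay below the wild-type range and Mim1-6 within it. The erythroid list, with 11 of 12 genes measured, stood at 9.49 and 9.25 on the Mim1 arrays, 10.16 and 10.14 on the Mim2 arrays and 9.88 to 10.27 on the wild-type arrays. Red pulp macrophage genes stood at 10.59 and 10.05 on the Mim1 arrays, 10.54 and 10.71 on the Mim2 arrays and 9.74 to 10.23 on the wild-type arrays and skeletal muscle genes at 6.31 and 5.96 on the Mim1 arrays, 6.90 and 7.25 on the Mim2 arrays and 6.07 to 6.63 on the wild-type arrays. The part of these cells in the result was not tested.

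**Figure D5:**
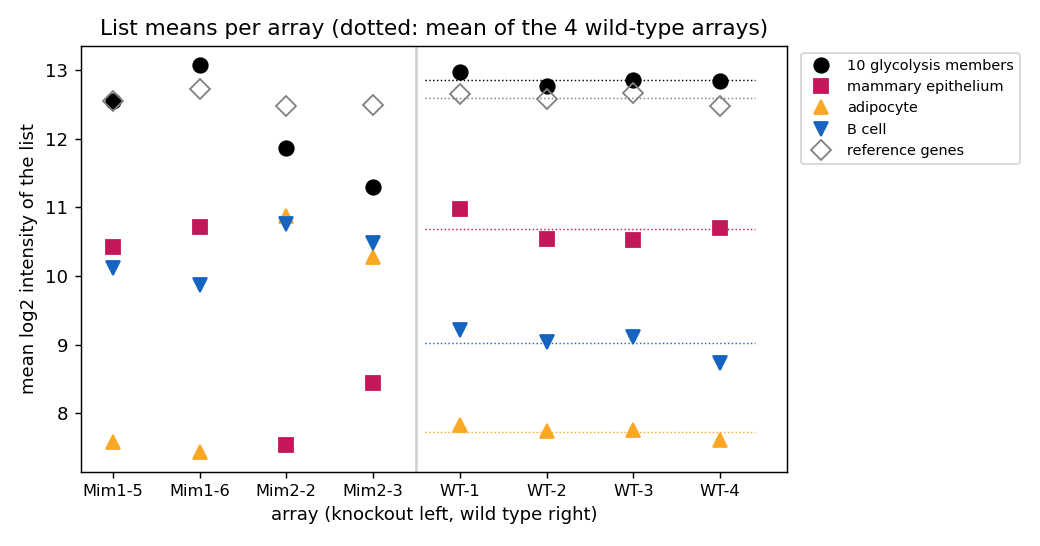
Mean log2 intensity of the 10 glycolysis genes and of 4 other gene lists on each of the 8 arrays, with a dotted line at the mean of the wild-type arrays for each list; heights of different lists rest on different probes and are not compared. The glycolysis mean and the mammary mean are lowest on Mim2-2 and Mim2-3, where the adipocyte mean is highest and the reference gene mean stays within 12.47 to 12.72.

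Ratios between isoenzymes, taken as differences of log2 intensity within an array, compare genes on the same RNA. Their absolute size depends on the probes, and the knockout minus wild type difference is what can be read. The 4 pairs were set side by side after the data were seen, as a description. For Ldha minus Ldhb it was 0.81, with values of 2.73, 1.96, 3.19 and 3.46 on the knockout arrays and 1.60 to 2.31 on the wild-type arrays. For Hk1 minus Hk2 it was -0.25, for Pfkl minus Pfkp -0.33 and for Slc2a1 minus Slc2a3 -0.13. The knockout and wild-type ranges overlapped in all 4 pairs. In exact permutation tests p was 0.0857 for Ldha minus Ldhb and 0.457 to 0.971 for the rest. The Ldha minus Ldhb shift depends on the feature read. The brightest Ldha feature, used here, differed by -0.24 and the second by -0.90, against -1.05 for Ldhb.

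The named genes most like Slc2a1 over the 8 arrays were sought by the root mean square distance between log2 profiles centred on their means. Slc2a1 itself spread by 1.14 by this measure. The nearest were Abhd17c at 0.138, Sh3yl1 at 0.175, Polr1a at 0.197, Cdh1 at 0.200 and Kif22 at 0.213. Cdh1, the epithelial adhesion gene E-cadherin, is on the mammary list. Its log2 intensity was 9.98 and 11.14 on the Mim1 arrays, 7.85 and 8.45 on the Mim2 arrays and 10.44 to 11.05 on the wild-type arrays. The genes nearest to the mean profile of the 10 genes, which spread by 0.582, were Gm12537 at 0.0750, Lzic at 0.0903, Gm16374 at 0.0907, Gm10358 at 0.0940 and Smc1a at 0.100. The 3 Gm genes are described in the files as predicted genes similar to Gapdh, so their probes may read Gapdh RNA and they are no separate support. These genes were found by likeness on the same 8 arrays, and the distances are a description.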

How the data were processed

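Total RNA of 8 spleens, which the series describes as separate animals, was profiled on NimbleGen arrays. The authors deposited an intensity per feature on a linear scale, made with RMA per the submitters' processing notes, with no version given there. They also deposited a standard error score per feature, which entered no test. Positions are on build MM9 per the file headers. Of 24203 Entrez gene numbers, 21583 matched the RefSeq table of assembly GRCm38.p6, and other names are those of the array design. A deposited table of the series holds 21856 of the 44170 features with equal values (relative tolerance 1e-06). RMA sets all arrays to a like distribution, so a change in total RNA is not seen, and the number of arrays limits the precision.

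Values were taken to log2 and not normalized again. Differences were fitted in R 4.3.3 with the lmFit and eBayes functions of limma 3.58.1 and tested two-sided, with labelled sex as an additive term and Benjamini-Hochberg adjustment over all 44170 features at a threshold of 0.05. A fit with the genotype by sex term gave the within-sex values. Exact two-sided permutation tests over 70 arrangements of the arrays stand beside single genes. The fit was tested on simulated data. The background is a summary of 5000 random probes.

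The members and lists were chosen with earlier results of these data known. There were 9 lists of other pathway and reference genes and 11 lists of cell type markers. Named from them were the 3 genes per pathway list with the smallest p, a few genes fixed by name, and the 5 genes nearest in profile to Slc2a1 and to the mean of the members. Actb, Slc2a10 and Mlxip were not analysed here. A gene that the rule takes is not reported here. Alternatives covered the source of values, normalization, a filter on dim features, variance estimates, weights of arrays, a floor, covariates, the feature per gene and leaving out arrays. Slides and scans are unnamed in the tables, so neither was a block.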

Additional observations from a re-analysis of the deposited data

How the results depend on the processing

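Over 21 settings each, Slc2a1, Gpi1, Pfkl, Tpi1, Gapdh and Eno1 kept a knockout minus wild type difference below 0 and passed in none. Hk1 turned to 0.127 with the mammary mean as a further term, 0.163 without both Mim2 arrays, 0.00626 as the mean of its features and 0.618 on its second feature. Pfkp turned to 0.0651 as the mean of its features and 0.429 on its second brightest, Ldha to 0.0287 without both Mim2 arrays, and Hk2 to 0.0996 without Mim2-3, with a range of -0.676 to 0.0996 over the arrays left out. The median difference of the 10 genes, -0.65, was -0.0897 without both Mim2 arrays and the same within females, -1.25 within males, and -0.826 to -0.434 without any 1 array. The within-sex medians and all alternatives within males were chosen after seeing the data.

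With trend and robust estimates in eBayes, limma called 16 features between knockout and wild type and 578 for the genotype by sex term, in place of 0 and 0. The other settings run gave 0 for each, fewer of them for the genotype by sex term, and at an unadjusted p under 0.05 the counts as reported were 6122 and 5872. Within males 1875 features were called. The count was 4830 of the features in the table of the series, 4266 with trend and robust estimates, 1041 with array weights and 0 to 1476 without any 1 array. The within-male calls of Slc2a1 and Pfkl held in 6 of 15 settings; with array weights the adjusted p was 0.0517 for Slc2a1 and 0.0542 for Pfkl. The cause was not tested. No paired analysis was possible because the names of the knockout and wild-type animals share no number that pairs them. With 4 arrays a group, and 2 within a sex, differences of the size of Gpi1 and Ldha lie inside their own intervals around 0.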
